A study of Mus musculus with 29 samples.

Results

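The 10 genes described here encode regulators of the aryl hydrocarbon receptor and of oxidative metabolism, and they were taken by name from the 24062 genes of the RNA-seq table. They comprised the aryl hydrocarbon receptor Ahr, its repressor Ahrr and its dimer partner Arnt, the peroxisome proliferator-activated receptors Ppara, Ppard and Pparg, the coactivators Ppargc1a and Ppargc1b, and the estrogen-related receptors Esrra and Esrrg. The set had been chosen by the RNA difference between bipolar cells and photoreceptors, in which Ahrr and Ppara were far lower in bipolar cells, so the RNA values of the 10 genes in that contrast are given as a description with no test. Of the 10 genes, 9 passed the filter on low counts, and Pparg did not.

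RNA-seq had been performed on 15 libraries, 3 from each of 5 populations of sorted adult mouse retinal cells. All bipolar cells (pan-BC) came from mice carrying Otx2-GFP+/- at postnatal day 44 to 47, in which GFP is knocked into the Otx2 locus, and ON bipolar cells (ON-BC) and OFF bipolar cells (OFF-BC) from mice carrying Otx2-GFP+/- and Grm6-YFP+/+ at postnatal day 42 to 48, in which the Grm6 promoter marks ON bipolar cells with YFP. OFF-BC were sorted a second time and all other populations with RNA once, since GFP at the Otx2 locus is also weakly present in photoreceptors. Rods were Nrl-eGFP cells at postnatal day 56, and blue cones were Nrl-eGFP;NrlKO photoreceptors of the same age, which lack the rod factor Nrl (Nrl-/-) and stand in for the rare native blue cones. Chromatin accessibility had been measured by ATAC-seq in 12 libraries, 2 from each of these populations and 2 from green cones of Opn1mw-GFP mice at postnatal day 56, with peak lists alone used from 2 further libraries of double-sorted green cones. The labels give the pan-BC mice of the ATAC-seq libraries the same genotype as ON-BC and OFF-BC. Photoreceptor data had been taken over from earlier work on older mice, so cell class, study and age cannot be told apart in any comparison of bipolar cells with photoreceptors.

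The aryl hydrocarbon receptor is a ligand-activated basic helix-loop-helix transcription factor that pairs with Arnt to bind xenobiotic response elements, and its repressor Ahrr competes for Arnt and for the same elements. Peroxisome proliferator-activated receptors are nuclear receptors for fatty acids that act as dimers with retinoid X receptors, and Ppara drives genes of fatty acid oxidation. The PGC-1 coactivators Ppargc1a and Ppargc1b bind such receptors and the estrogen-related receptors, which lack a known natural ligand, and together they drive genes of mitochondria, organelles that fill the inner segments of photoreceptors.

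RNA-seq libraries held 12329548 to 26266746 counted reads and ATAC-seq libraries 4176776 to 12345845, and values below are counts divided by 1 size factor per library, called normalized counts. In Nrl-/- blue cones Nrl stood at 485.5 to 764.1 and in rods at 11476 to 16599, as the labels give. The summed level of 7 bipolar markers was 105229 to 134094 over the 9 bipolar libraries, 1420 to 1903 in rods and 26247 to 30548 in blue cones, where 1 marker, Cabp5, stood at a mean of 27234. The 5 rod markers in pan-BC reached 0.397 to 1.62% of their rod level, in ON-BC 0.325 to 1.41% and in OFF-BC 0.0485 to 0.145%, while the 5 cone markers reached 0.259 to 5.60%, 0.0354 to 2.01% and 0.505 to 10.5% of their blue cone level. In bulk libraries, fewer cells of a type and less RNA per cell cannot be told apart. The labels do not say whether replicates came from separate animals, so p-values measure the spread between these libraries.

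A set of 5 short stretches of genomic sequence (GRCm38, from RefSeq) is shown because the accessibility results turn on them, or, for the last, because it precedes the start of Ahrr, the gene with the highest level per kb in rods and blue cones. Capitals mark matches, on either strand, to the nuclear receptor half-site AGGTCA or to the xenobiotic response core GCGTG, which AHR with Arnt is known to bind. The sites TAATCC and TAATTA, which share their first letters and are bound by homeodomain factors such as those of photoreceptors and bipolar cells, were searched as well and had no match in the stretches shown.
Ahrr intron, chr13:74220762-74220961, minus strand: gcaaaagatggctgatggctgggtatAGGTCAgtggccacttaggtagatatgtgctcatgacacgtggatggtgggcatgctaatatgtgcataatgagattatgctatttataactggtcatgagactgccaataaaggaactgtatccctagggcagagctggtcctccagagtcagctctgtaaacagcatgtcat
Ppara promoter, chr15:85735309-85735417, plus strand: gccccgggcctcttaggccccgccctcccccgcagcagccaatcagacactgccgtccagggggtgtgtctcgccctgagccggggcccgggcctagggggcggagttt
Esrrg internal promoter, chr1:187997681-187997819, plus strand: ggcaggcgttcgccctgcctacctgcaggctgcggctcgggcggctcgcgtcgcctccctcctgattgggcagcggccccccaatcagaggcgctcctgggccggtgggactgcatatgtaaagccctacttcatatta
Ppargc1a far upstream, chr5:52115938-52116137, minus strand: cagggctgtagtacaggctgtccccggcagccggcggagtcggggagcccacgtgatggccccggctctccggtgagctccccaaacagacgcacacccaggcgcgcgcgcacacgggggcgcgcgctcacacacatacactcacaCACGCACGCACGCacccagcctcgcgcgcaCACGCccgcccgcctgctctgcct
Ahrr before its start site, chr13:74292332-74292581, minus strand: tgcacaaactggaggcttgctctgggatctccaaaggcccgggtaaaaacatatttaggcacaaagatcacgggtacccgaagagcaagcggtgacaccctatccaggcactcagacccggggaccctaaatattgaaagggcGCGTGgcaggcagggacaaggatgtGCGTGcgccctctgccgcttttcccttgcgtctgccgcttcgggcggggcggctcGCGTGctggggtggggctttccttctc
The Ahrr intron held 1 half-site, and the Ppara and Esrrg stretches held no match to any of the 4 motifs. Bases in exons were left out of these stretches, 91 of 200 for Ppara and 61 of 200 for Esrrg, whereas the shares below are of whole regions. The stretch upstream of Ppargc1a held 4 matches to GCGTG, of which 3 overlap each other by 1 base, and the 250 bases before the start of Ahrr held 3. Among all 110715 regions of 200 bases in the ATAC-seq table, 21.8% held TAATCC, 5.2% TAATTA, 15.6% AGGTCA and 18.5% GCGTG, and among the 98 regions nearest to a start site of the 10 genes these shares were 22.4% (22 regions), 3.06% (3), 14.3% (14) and 16.3% (16). In the 250 bases before the start site, 7 of the 8 genes of the set that are in the promoter table held GCGTG (Ahrr, Arnt, Esrra, Esrrg, Ppara, Ppard and Pparg), in 8 of their 13 windows, and 28.2% of all 32851 promoter windows did, which is a description of letters and of no bound factor.

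Within the AHR axis, the repressor showed the widest range of the 3 genes. Ahrr lies on the minus strand of chromosome 13 (gene 11624, chr13:74211118-74292331). It was at 1.06, 4.04 and 11.0 normalized counts in the 3 pan-BC libraries, at 10.3, 1.96 and 1.03 (ON-BC) and at 1.12, 3.60 and 11.0 (OFF-BC). It was at 4389, 3702 and 3774 (rods) and at 2729, 2384 and 2017 (blue cones). All 6 photoreceptor libraries were thus above all 9 bipolar libraries, rods were above blue cones without overlap, and the 3 bipolar populations overlapped. The reads behind these values were 14 over the 3 pan-BC libraries, 11630 over rods and 9495 over blue cones, which gave a ratio of rods to pan-BC of 779 (exact 95% counting interval 464 to 1425) and of blue cones to pan-BC of 466 (278 to 853), and these intervals cover counting error only. On the scale of log2(normalized count + 1), pan-BC differed from rods by -9.62 (SE 0.67) and from blue cones by -8.88. The mean of Ahrr in pan-BC was 0.136% of that in rods, below the 0.397 to 1.62% reached by the 5 rod markers, whereas in OFF-BC its 0.133% lay within the 0.0485 to 0.145% of the rod markers there. A residue of photoreceptor RNA in the bipolar libraries was not tested as a source of these few reads.

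The receptor itself varied less. Ahr (gene 11622, chr12:35497979-35534989, minus strand) was at 70.2, 63.6 and 90.5 (pan-BC), 58.8, 79.4 and 60.5 (ON-BC), 82.7, 75.7 and 96.0 (OFF-BC), 713.1, 750.9 and 672.2 (rods) and 414.4, 399.1 and 379.7 (blue cones). Rods, blue cones and bipolar cells formed separate levels in that order, and the 3 bipolar populations overlapped. Ahr in pan-BC was -3.25 (SE 0.18) from rods and -2.41 from blue cones on the log2 scale, and its mean in pan-BC, at 10.5% of the rod mean, stood above the share of every rod marker. The dimer partner Arnt (gene 11863, chr3:95434367-95497240, plus strand), which also serves the hypoxia factors, was at 662.7, 659.7 and 728.0 (pan-BC), 886.4, 877.0 and 801.3 (ON-BC), 595.7, 695.6 and 657.7 (OFF-BC), 1748, 1857 and 1943 (rods) and 1494, 1642 and 1528 (blue cones). It was the most even gene of the axis, with log2 differences of pan-BC from rods and blue cones of -1.44 and -1.18.

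Among the nuclear receptors for fatty acids, Ppara (gene 19013, chr15:85734910-85806851, plus strand) was close to absent from bipolar libraries. It was at 0, 0 and 1.22 (pan-BC), at 2.06, 7.84 and 7.18 (ON-BC) and at 2.24, 1.20 and 0 (OFF-BC), which rest on 1, 17 and 3 reads in all. It was at 1599, 1341 and 1431 (rods) and at 515.9, 289.9 and 250.2 (blue cones). The order was rods, then blue cones, then the bipolar populations, with overlap between pan-BC and OFF-BC and between ON-BC and OFF-BC. With 1 read in pan-BC against 4281 in rods and 1406 in blue cones, the ratios were 4013 (exact 95% counting interval 720 to 158547) and 967 (173 to 38203), and the log2 differences, which depend on the 1 added to each value, were -10.12 (SE 0.51) and -8.01. Its mean was 0.0280% of the rod mean in pan-BC, below every rod marker, and 0.391% in ON-BC, within the range of the rod markers there.

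Ppard (gene 19015, chr17:28232754-28301469, plus strand), the widely expressed receptor of the family, was at 80.8, 106.9 and 96.7 (pan-BC), 80.5, 92.1 and 69.8 (ON-BC), 65.9, 82.9 and 72.8 (OFF-BC), 144.6, 130.1 and 159.9 (rods) and 45.1, 43.3 and 42.9 (blue cones). Bipolar cells therefore lay between rods and blue cones, with no overlap with either, at log2 differences of pan-BC of -0.61 from rods and 1.09 from blue cones. Pparg (gene 19016, chr6:115360879-115490404, plus strand), best known from adipocytes, had 4 reads in all 15 libraries. It was at 2.06 and 0.980 in ON-BC libraries 1 and 2 and at 1.20 in OFF-BC library 2, and at 0 in the other 12, where 3 reads over a population would have given a mean of 1.09 (pan-BC), 1.02 (rods) and 0.750 (blue cones). Pparg was thus not detectable in photoreceptors at this depth.

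The coactivators of the PGC-1 family parted from each other in blue cones. Ppargc1a (gene 19017, chr5:51454249-52115853, minus strand) was at 319.1, 272.4 and 301.0 (pan-BC), 253.8, 273.4 and 241.1 (ON-BC) and 62.6, 109.3 and 109.2 (OFF-BC). It was at 3021, 3804 and 3766 (rods) and 2420, 2100 and 1843 (blue cones), so rods, blue cones, the populations with ON bipolar cells and OFF-BC followed each other without overlap except between pan-BC and ON-BC. The log2 differences of pan-BC were -3.56 (SE 0.18) from rods and -2.82 from blue cones.
Ppargc1b (gene 170826) was at 2225, 1995 and 1996 (pan-BC), 2138, 1982 and 1819 (ON-BC) and 918.7, 805.0 and 841.9 (OFF-BC). It was at 3117, 2723 and 2967 in rods but at 366.3, 244.3 and 299.8 (blue cones), below every other population. Pan-BC differed from rods by -0.50 (SE 0.13) and from blue cones by 2.78 on the log2 scale, whereas Ppargc1a was lower in pan-BC than in both.

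The estrogen-related receptors differed in opposite directions between bipolar cells and photoreceptors. Esrra (gene 26379, chr19:6910977-6922048, minus strand) was low throughout, at 97.9, 102.9 and 111.3 (pan-BC), 148.6, 104.8 and 105.7 (ON-BC), 43.6, 66.1 and 73.9 (OFF-BC), 53.4, 43.0 and 64.8 (rods) and 24.1, 36.4 and 34.8 (blue cones). Pan-BC and ON-BC were higher than the rest, OFF-BC overlapped with rods, and pan-BC was 0.96 (SE 0.27) above rods and 1.70 above blue cones on the log2 scale. Esrrg (gene 26381, chr1:187608510-188214885, plus strand), known for high levels in neurons and heart, was at 1163, 1040 and 1089 (pan-BC), 1260, 1212 and 1303 (ON-BC), 1258, 1323 and 1355 (OFF-BC), 1398, 2062 and 1813 (rods) and 2414, 2105 and 1915 (blue cones). It stayed within a narrow band, with rods overlapping blue cones, and pan-BC was -0.66 from rods and -0.96 from blue cones.

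**Figure D1:**
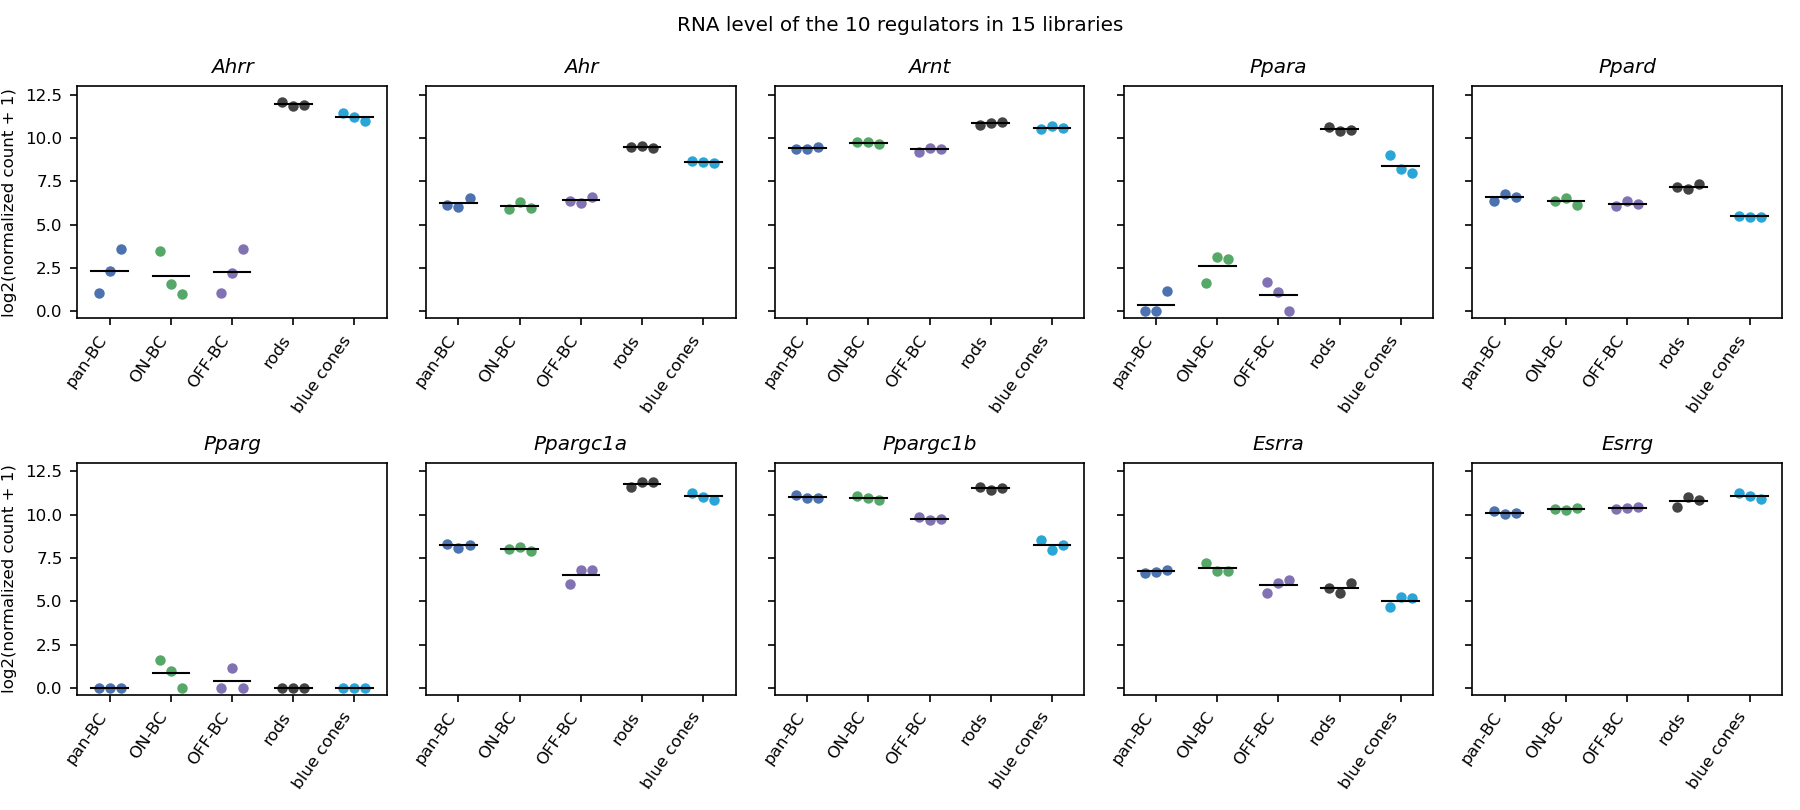
RNA level of each of the 10 genes as log2(normalized count + 1), with 1 point per library, 3 libraries per population and the population mean of the plotted values as a bar. Ahrr and Ppara lie near 0 in the bipolar libraries and high in rods and blue cones, Pparg lies near 0 throughout, and blue cones have the lowest level of Ppargc1b.

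Per kb of exon, which allows genes to be compared, the order in rods was Ahrr at 832 normalized counts per kb, Ppargc1a at 536, Arnt at 423, Esrrg at 296, Ppargc1b at 282, Ppara at 194, Ahr at 130, Ppard at 45.0 and Esrra at 24.0. Ahrr stood at percentile 88.9 of the 14024 genes tested there and Ppargc1a at 82.4. In blue cones Ahrr led again with 500, followed by Esrrg with 362, Arnt with 356 and Ppargc1a with 322, and Ppargc1b was at 29.2. In pan-BC the highest levels per kb were those of Ppargc1b at 199, Esrrg at 185 and Arnt at 156, and Ahrr was at 1.13. In ON-BC and OFF-BC Esrrg led, with 212 and 221 per kb.

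In the contrast that had chosen the set, 8 of the 9 genes that passed the filter were lower in pan-BC compared with rods and 6 of 9 lower than in blue cones, with median log2 differences of -1.44 and -1.18. Over all genes tested the medians were 0.21 and 0.16, and 43.6% and 36.3% of genes were called in either direction (limma's treat test against a log2 difference of 1, adjusted p below 0.05). Both contrasts share the pan-BC libraries.

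ON-BC and OFF-BC, which depolarize and hyperpolarize to light respectively, came from 1 mouse line and 1 study. None of the 9 genes was called between them by limma against a log2 difference of 1, where 6.55% of all genes were, 1 of the 9 had an unadjusted p below 0.05, DESeq2 called 0, and edgeR called 1 gene, Ppargc1a, where it called 8.74% of all genes. Ppargc1a was 2.73 times higher in ON-BC by its means of 256 ± 16.2 and 93.7 ± 27.0 (SD, n = 3), a log2 difference of 1.48 (SE 0.18). Its adjusted p was 0.110 by limma, 0.0234 by edgeR, 0.200 by DESeq2, and 0.0482 without OFF-BC replicate 3, within a range over the 15 alternatives of 9.14e-06 to 0.689. Ppargc1b was 2.31 times higher, with means of 1980 ± 159 and 855 ± 58.0 and a log2 difference of 1.21 (SE 0.13, limma adjusted p = 0.577 against a log2 difference of 1). All 3 ON-BC libraries were above all 3 OFF-BC libraries for both coactivators, and likewise for Esrra (120 ± 25.0 and 61.2 ± 15.7, log2 difference 0.97) and Arnt (855 ± 46.6 and 650 ± 50.4, 0.40). The share of all genes with such a separation is not given here, so it is a description of these libraries alone.

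Against no change at all, limma called 5 of the 9 genes higher in ON-BC, where 27.0% of all genes were called in either direction. These were Ppargc1b (adjusted p = 1.65e-06), Ppargc1a (9.14e-06), Arnt (0.00482), Esrra (0.0134) and Ppara (0.0218). Ppara rests on 17 reads against 3 and passed the filter on low counts only through rods and blue cones, so its call is no support. Ahr, Ahrr, Ppard and Esrrg were not called by that test, with log2 differences of -0.36, -0.26, 0.12 and -0.06. The value of Ahrr rests on 13 reads against 14. The median log2 difference of the 9 genes, Ahrr and Ppara with their few reads included, was 0.40 and that of all genes -0.02. Summed rod markers also differed between the populations, at 16791 to 20464 in ON-BC and 861 to 1394 in OFF-BC, as did cone markers, at 3942 to 4587 and 20234 to 89854, and 7 immediate early genes, at 1979 to 12059 and 559 to 712. At the highest share of any rod marker, rods would have added 49.8 of the 256 normalized counts of Ppargc1a in ON-BC and 41.4 of the 1980 of Ppargc1b. At the highest share of any cone marker, blue cones would have added 31.9 of the 855 of Ppargc1b in OFF-BC. For Ppargc1a that share gives 223, above the 93.7 measured in OFF-BC, so it is too high for this gene. The lowest share of any cone marker gives 10.7. The part of such RNA and of immediate early genes in these differences was not tested.

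**Figure D2:**
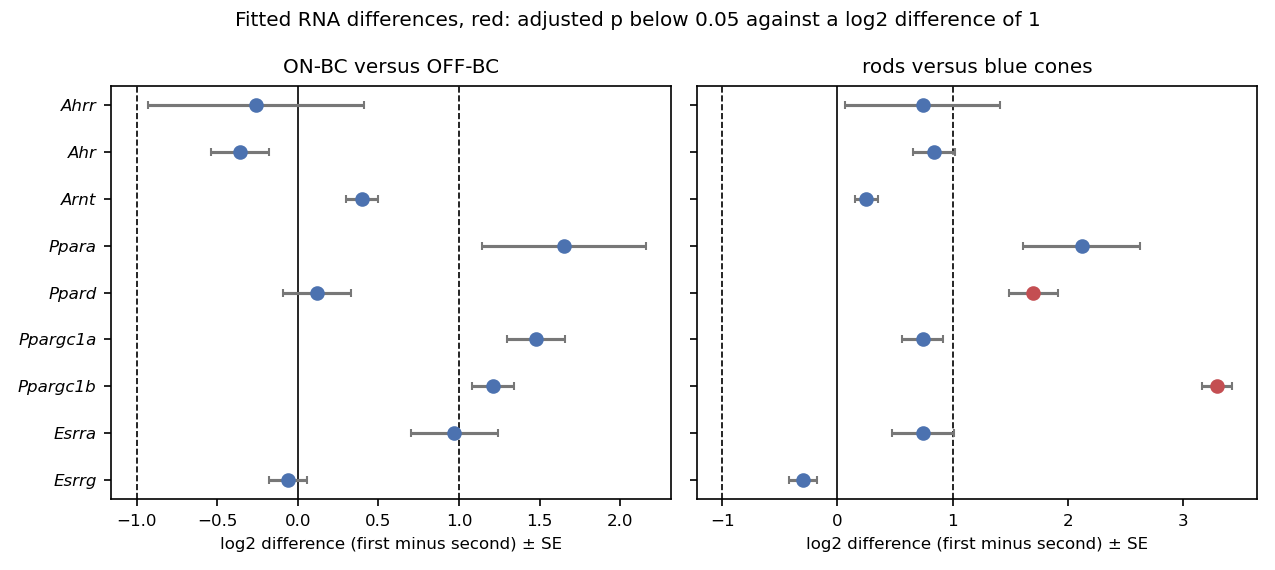
Fitted log2 differences in RNA with their standard errors for the 9 genes tested, ON-BC minus OFF-BC on the left and rods minus blue cones on the right, with dashed lines at -1 and 1. Ppargc1b at 3.29 and Ppard at 1.70 are the 2 differences called, both between rods and blue cones.

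Rods and blue cones share libraries with the contrast that chose the set, but were not compared in it. Ppargc1b was 9.67 times higher in rods, at 2936 ± 199 against 303 ± 61.1, a log2 difference of 3.29 (SE 0.13, limma adjusted p = 1.45e-10), and all 15 alternatives called it. Ppard was 3.31 times higher in rods, at 145 ± 14.9 against 43.8 ± 1.19 (log2 difference 1.70, SE 0.21, adjusted p = 0.0158). The call of Ppard ended without rods replicate 3 (adjusted p = 0.0652) and with replicate numbers as a block (0.0944), the highest of its alternatives, and held in 13 of 15. These 2 of 9 genes compare with 15.9% of all genes called by limma, while edgeR called 19.5% of all genes, and against no change 7 of 9 were called where 57.5% of all were. Ppara was 4.14 times higher in rods by its means of 1457 ± 131 and 352 ± 143. It was not called by limma (log2 difference 2.12, SE 0.51, adjusted p = 0.117) but was by edgeR (1.97e-04) and DESeq2 (4.15e-04). In all, 6 of 15 alternatives called it, with a range from 1.97e-04 to 0.415. The limma SE pools the spread of all 15 libraries, including that of the bipolar libraries at 0 to 7.84 normalized counts. Ahrr, Ahr, Ppargc1a and Esrra were each 1.66 to 1.79 times higher in rods by their means, and none of these 4 passed the test against a log2 difference of 1. Their libraries did not overlap, but the share of all genes without overlap is not given here. The lower level of Ppargc1b therefore set blue cones apart from rods more than any other of the 9 genes, by log2 difference.

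Other genes of the same pathways, listed by function rather than by level, were compared between pan-BC and photoreceptors with a test. They were no members of the set, but the lists were drawn up with earlier results of these data known. The counts and p-values of these genes are therefore not independent of that choice. Of 97 such genes 81 were tested. Against rods, 16 were higher and 25 lower in pan-BC (50.6% called, where 43.6% of all genes were), with a median log2 difference of -0.40. Against blue cones, 14 were higher and 23 lower (45.7%, where 36.3% of all genes were), with a median of -0.53. The comparisons share the pan-BC libraries. By edgeR 43 and 42 of the 81 were called, where 48.0% and 41.2% of all genes were, and by limma against no change 65 and 67, where 79.5% and 76.3% of all genes were.

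The dimer partners and chaperones of AHR were called in both directions against rods, 3 higher and 4 lower of 9 tested, and 1 each of 9 against blue cones. Arnt2, a neural relative of Arnt, was at 116 ± 26.0 (pan-BC), 0.970 ± 1.68 (rods) and 3.21 ± 4.93 (blue cones) (log2 differences 6.19 and 5.48, limma adjusted p = 2.26e-06 and 1.79e-05). In the bipolar libraries, where Ahrr was near 0, Arnt2 was thus above its level in photoreceptors, though below Arnt in normalized counts (mean of 683 in pan-BC). Epas1, a hypoxia factor that also uses Arnt, was at 3469 ± 118 in rods, 38.5 ± 1.64 in pan-BC and 34.9 ± 21.9 in blue cones, a log2 difference of pan-BC from rods of -6.46 (adjusted p = 8.26e-10). Arntl, a clock factor, and Hif1a, the main hypoxia factor, were lower in pan-BC than in rods by -2.43 and -1.62 on the log2 scale, and the chaperone Hsp90ab1 was higher by 1.56.

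Of the target genes of AHR, 4 of 9 were tested, and Cyp1a1, Cyp1a2, Aldh3a1, Ugt1a6a and Gsta1 had no library above 14.4 normalized counts. Tiparp, an ADP-ribosyltransferase induced by AHR, was at 92.7 ± 23.7 (pan-BC), 469 ± 27.3 (rods) and 516 ± 167 (blue cones) (log2 differences -2.35 and -2.45, limma adjusted p = 6.79e-05 and 4.74e-05). Slc7a5, an amino acid transporter, was above rods in pan-BC by 2.29 (adjusted p = 9.83e-06). Nqo1 and Cyp1b1 were called higher in pan-BC than in blue cones, at means of 12.4 and 10.4 against 0.740 and 0.759. These 2 were not called against rods, where their means were 7.78 and 8.10, and Cyp1b1 was at a mean of 0.373 in OFF-BC. Slc7a5 was not called against blue cones (log2 difference 0.43). Tiparp, lower in pan-BC, was thus the only tested target called against both rods and blue cones.

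Of 12 partners and cofactors of the PPARs, 1 was higher and 3 were lower in pan-BC against rods, and 3 were called each way against blue cones. Rxra, a dimer partner of all PPARs, was at 70.6 ± 5.08 (pan-BC), 531 ± 32.7 (rods) and 275 ± 24.1 (blue cones) (log2 differences -2.89 and -1.95, limma adjusted p = 6.07e-06 and 0.00491). Rxrg, a known gene of cones, was at 4290 ± 128 in blue cones, 66.6 ± 43.3 in pan-BC and 17.6 ± 4.67 in rods. Med1, a mediator subunit that binds nuclear receptors, was at 1134 ± 35.1 in pan-BC and 8016 ± 65.6 in rods, but ON-BC at 4139 ± 1109 and OFF-BC at 3589 ± 578 were both above pan-BC, which holds both classes. The coactivators Ncoa1 (4954 ± 207 against 1947 ± 295) and Ep300 (533 ± 39.3 against 192 ± 48.4) were higher in pan-BC than in blue cones, and Ncoa2 was lower than in rods by -1.88.

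Fatty acid handling genes, grouped here as PPAR targets together with relatives such as Cpt1c, were split as well. Against rods 8 of 26 tested were higher and 9 lower in pan-BC (median -0.49), and against blue cones 6 were higher and 13 lower (median -1.40). Cpt1a, which carries long-chain fatty acids into mitochondria, was at 297 ± 45.1 (pan-BC), 8831 ± 727 (rods) and 7150 ± 352 (blue cones) (log2 differences -4.89 and -4.59, limma adjusted p = 9.28e-13 and 1.12e-11). Its brain relative Cpt1c showed the reverse, at 3502 ± 227, 36.6 ± 16.0 and 123 ± 36.4 (6.65 and 4.87, adjusted p = 6.17e-12 and 1.97e-09). The dehydrogenases Acadvl and Acadm, which start the oxidation of very long and medium chains, were lower in pan-BC, by -3.48 from rods for Acadvl and by -3.11 from blue cones for Acadm. Lpl, the lipoprotein lipase, was at 318 ± 37.7 in pan-BC against 1.04 ± 1.02 in rods and 6.48 ± 5.09 in blue cones, but at only 120 ± 61.9 in ON-BC and 49.7 ± 47.9 in OFF-BC. Angptl4, an inhibitor of that lipase, was above rods in pan-BC by 4.42, the fatty acid binding protein Fabp3 was higher than in blue cones by 4.68, and Fabp4 was lower than in both by -5.09 and -4.67.

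The genes that work with the PGC-1 coactivators and the estrogen-related receptors were called in 1 direction alone, with 8 of 14 lower in pan-BC than in rods (median -1.46) and 5 of 14 lower than in blue cones (median -0.82). Esrrb, the third estrogen-related receptor and a known gene of rods, was at 4864 ± 595 in rods, 279 ± 51.9 in blue cones and 50.5 ± 19.4 in pan-BC (log2 differences of pan-BC -6.64 and -2.51, limma adjusted p = 1.79e-11 and 2.15e-04). Prkaa1, a subunit of the energy sensor AMPK, was lower by -2.82 and -2.14, and Lpin1, which acts with Ppargc1a, by -2.48 and -2.35. The mitochondrial target genes were more alike, with 13 of 16 not called against rods and 14 of 16 against blue cones. Those called were higher in pan-BC. They were Idh3b of the citric acid cycle (7468 ± 439 against 2517 ± 182 and 2792 ± 178) and, against rods, Sdhb of the respiratory chain (5580 ± 638 against 2178 ± 356). Vegfa, an angiogenic factor on this list that is not mitochondrial, was also called (588 ± 42.9 against 49.8 ± 10.4 and 170 ± 19.6). None of the 16 genes of this list was called lower in pan-BC, where Ppargc1a was lower. Genes of fatty acid oxidation such as Cpt1a, Acadvl and Acadm were counted with the PPAR targets alone, where calls went both ways.

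**Figure D3:**
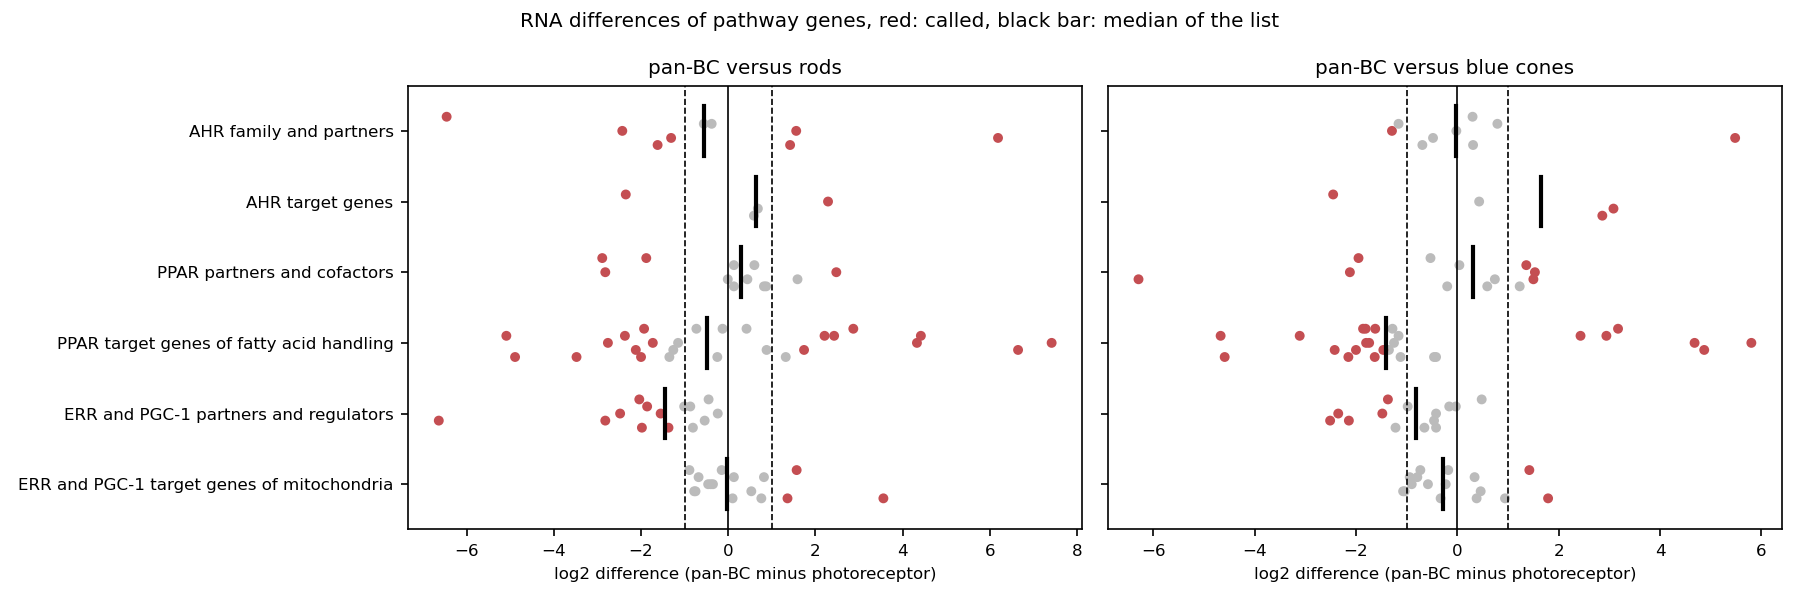
Log2 differences in RNA of the 81 pathway genes tested, pan-BC minus rods on the left and pan-BC minus blue cones on the right, with 1 row for each list, a bar at its median and red points for genes called. Partners of the PGC-1 coactivators lie to the left with a median of -1.46 against rods, and the mitochondrial targets center near 0 with a median of -0.02.

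The genes whose course over the 15 libraries was most like that of Ahrr, by Pearson's r of log2(normalized count + 1), were Glcci1 (0.989), Wwtr1 (0.989), St6galnac2 (0.988), Klhl36 (0.988) and Hnrnpf (0.988). For Ppara they were Cwc22 (0.989), Dgke (0.988), Nup107 (0.986), Slc25a37 (0.986) and Papd5 (0.986). Ahrr and Ppara had an r of 0.941 with each other. Since rods and blue cones form 1 group of points and bipolar cells another in such genes, these values describe that shared gap, and the libraries of each group share a study.

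Chromatin accessibility is a separate measure on other libraries, which had not chosen the set, and was compared with a test. Of 110715 regions, 98 lay nearest to a known start site of 1 of the 10 genes, and 95 of them were tested. Between pan-BC and rods, 42 of the 95 were called, 21 higher and 21 lower in pan-BC (44.2%), where 51.6% of all regions were called, 43735 higher and 12179 lower. The median log2 difference over all regions was 1.16 (0.96 with TMM scaling), so the even split of these 42 stands beside a general excess in pan-BC. Between pan-BC and blue cones 14 were higher and 18 lower (33.7%, where 35.9% of all regions were called, median of all 0.54), and between pan-BC and green cones 13 higher and 23 lower (37.9%, where 32.1% were, median of all 0.44). These 3 comparisons share the pan-BC libraries, and the count against blue cones was 18 to 20 without any 1 of the 4 libraries compared. When ON-BC was set against OFF-BC, 4 were higher and 7 lower in ON-BC (11.6%, where 7.39% were), which turned to 6 and 2 with a pseudocount of 5, to 4 and 0 with DESeq2, and to 5 and 2 with the replicate block. The total became 3 without OFF-BC replicate 1 and 7 without OFF-BC replicate 2. Between rods and blue cones 3 of 95 were called (3.16%, where 10% were).

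Ahrr had no region of the table within 1 kb of its start site at base 74292331 of chromosome 13, and a peak within that distance was listed in 1 of 14 libraries, pan-BC replicate 2. The region shown above from an intron of Ahrr, with its centre 71470 bases inside the gene and nearest to the start of the neighbouring Exoc3, was at 18.4 and 18.2 normalized counts in pan-BC, 5.97 and 7.32 (ON-BC), 29.6 and 34.1 (OFF-BC), 252 and 252 (rods), 168 and 199 (blue cones) and 116 and 67.6 in green cones. Every photoreceptor library was above every bipolar library. The log2 difference of pan-BC was -3.71 from rods (SE 0.31, limma adjusted p = 7.80e-07), -3.25 from blue cones (1.78e-05) and -2.21 from green cones (0.00345, and 0.0674 without green cones replicate 1, the highest of 13 alternatives). OFF-BC was above ON-BC there (log2 difference -2.11, adjusted p = 0.0219), which held in 6 of 13 alternatives and not without ON-BC replicate 1 (0.0843), OFF-BC replicate 1 (0.0576) or OFF-BC replicate 2 (0.0978), with 0.402, under the replicate block, the highest. The 1 region nearest to the start of Ahrr, with its centre at -9047 bases, went the other way, at 64.8 to 105 in bipolar libraries and 20.2 to 25.3 in photoreceptors. Pan-BC was above blue cones there by 1.76 (adjusted p = 0.0406), a call that held in 4 of 13 alternatives (up to 0.186) and was lost without any 1 of the 4 libraries compared.

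The promoter of Ahr was open throughout, at 273 to 483 normalized counts in all 12 libraries, and passed the test in none of the 5 comparisons. In the first intron of Ahr, at chr12:35534223-35534422 and with its centre 667 bases from the start, bipolar libraries were at 76.0 to 136, rods at 569 and 514, blue cones at 346 and 305 and green cones at 318 and 366. Pan-BC was below rods by -2.42 (SE 0.23, limma adjusted p = 3.45e-05), below blue cones by -1.68 (0.0155) and below green cones by -1.76 (0.0109). The last 2 calls ended without pan-BC replicate 1 (0.254 and 0.179, the highest of 13 alternatives), and also without blue cones replicate 1 (0.0967) or green cones replicate 2 (0.0856). Of 13 tested regions nearest to Ahr, 3 were higher and 3 lower in pan-BC against rods (46.2%, where 51.6% of all regions were called). Against green cones 3 were higher and 1 lower (30.8%, where 32.1% were). The higher ones lay outside the gene, past its end, with centres 97378, 133543 and 163091 bases from the start. The middle one of these was at 31.2 to 106 in bipolar libraries and 0 to 1.54 in photoreceptors (pan-BC from rods 5.38, adjusted p = 2.40e-05), and was called against rods, blue cones and green cones in all 13 alternatives. The promoter of Arnt, at chr3:95434233-95434432, was at 247 to 368 in bipolar libraries, 1135 and 1271 (rods) and 508 to 631 in cones, with pan-BC below rods by -1.84 (adjusted p = 1.92e-04) and not called against either type of cone.

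Ppara had 4 tested regions nearest to its start sites. Over all regions 51.6%, 35.9% and 32.1% were called in either direction against rods, blue cones and green cones. At Ppara all 4 were lower in pan-BC than in each of these populations. The 1 outside the gene, with its centre at -5969 bases, was at 2.28 to 10.7 in bipolar libraries and 23.8 to 60.7 in photoreceptors, and its call against green cones (log2 difference -2.35, limma adjusted p = 0.0466) held in 5 of 13 alternatives. It ended with DESeq2 (0.115), with the replicate block (0.0536) and without green cones replicate 1 (0.0696), green cones replicate 2 (0.195) or pan-BC replicate 2 (0.432). Without pan-BC replicate 2 its call against rods ended as well (0.0505), and 2 of 4 regions remained called against green cones. The promoter, at chr15:85735309-85735508, was at 26.4 and 5.13 (pan-BC), 19.4 and 22.0 (ON-BC), 55.2 and 58.4 (OFF-BC), 236 and 258 (rods), 376 and 322 (blue cones) and 99.1 and 76.0 in green cones. No bipolar library reached a photoreceptor library. The log2 difference of pan-BC was -4.26 from rods (SE 0.44, limma adjusted p = 4.42e-06), -4.75 from blue cones (4.46e-06) and -2.76 from green cones (0.00292, and 0.0692 without pan-BC replicate 2, the highest of 13 alternatives). A pair of regions farther into the gene, with centres 11053 and 18447 bases from the start, were lower in pan-BC than in rods by -4.34 (adjusted p = 4.98e-06) and -5.14 (1.90e-06). In the latter, bipolar libraries were at 1.95 to 5.39, rods at 142 and 194, and both types of cone at 39.4 to 60.0. Rods and blue cones were not called different at the promoter (log2 difference -0.49, adjusted p = 1.00), where RNA was 4.14 times higher in rods.

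**Figure D4:**
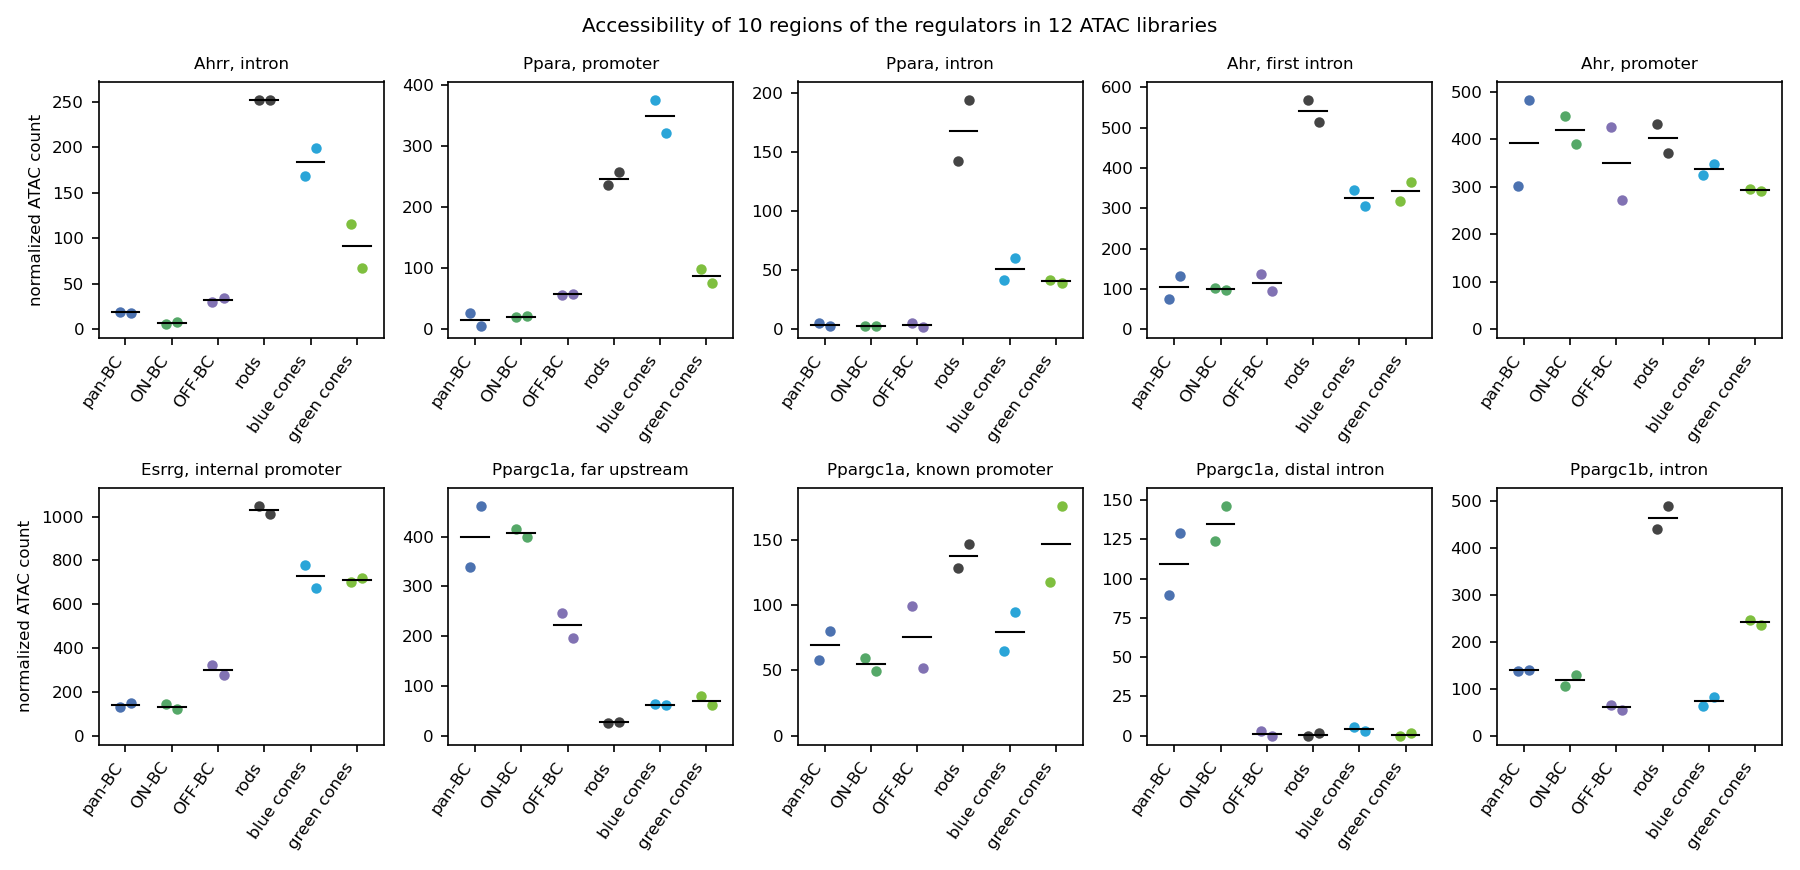
Normalized ATAC-seq counts of 10 regions of the set in the 12 libraries, with 1 point per library, 2 libraries per population, a bar at the mean and a scale of its own in each panel. Regions of Ahrr, Ppara and Esrrg are lowest in the 3 bipolar populations, the Ahr promoter is similar in all, and the far upstream region of Ppargc1a is highest in bipolar cells.

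At Ppard, 3 of 4 tested regions were lower in pan-BC than in rods, where 51.6% of all regions were called in either direction. The region with its centre at -8513 bases, which lies in the neighbouring gene Def6, was at 919 and 970 (rods), 154 to 262 in bipolar libraries and 317 to 420 in cones (log2 difference of pan-BC from rods -2.23, limma adjusted p = 9.14e-06). A region in an intron of Ppard, at chr17:28279369-28279568 and nearest to the start of another gene, was at 70.1 and 115 (rods), 5.18 and 9.39 (blue cones) and 31.2 to 105 in bipolar libraries. Rods were above blue cones there by 3.50 (adjusted p = 7.60e-04), which did not hold with only these 2 populations in the fit (0.0798) or with the replicate block (0.228, the highest of 13 alternatives). Green cones were at 37.7 and 11.3 there, the latter close to blue cones. At the promoter of Ppard, green cones at 314 and 294 and blue cones at 319 and 336 were below all other libraries. The promoter of Pparg, at chr6:115360874-115361073, was at 14.9 to 36.4 in bipolar libraries, 0 and 6.78 (rods), 10.4 and 9.39 (blue cones) and 12.3 and 26.8 (green cones), the last overlapping with bipolar libraries. Against rods it had a log2 difference of pan-BC of 2.88 (adjusted p = 0.0216) that held in 8 of 13 alternatives and not without pan-BC replicate 2 (0.106) or rods replicate 1 (0.419, the highest). Of the 5 tested regions nearest to Pparg, 1 was lower in pan-BC than in blue cones, and 2 were lower than in green cones. Over all regions 35.9% and 32.1% were called in either direction.

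Ppargc1a had regions on both sides. Of 24 tested regions nearest to its start sites, 12 were higher and 4 lower in pan-BC than in rods, 8 were higher and 0 lower than in blue cones, and 8 were higher and 4 lower than in green cones. The RefSeq annotation also holds predicted transcripts that start 562 kb upstream of the known start site with most transcripts, and with the regions in or within 10 kb of this longer gene, 23 of 38 were higher and 5 lower in pan-BC than in rods. Over all regions 43735 were higher and 12179 lower in pan-BC than in rods, a like excess of higher regions. Against blue cones 31235 of all regions were higher and 7731 lower, and against green cones 26183 and 8680. The region upstream of the predicted start, shown above, was at 339 and 461 (pan-BC), 415 and 400 (ON-BC), 247 and 197 (OFF-BC), 25.7 and 27.8 (rods), 63.5 and 60.7 (blue cones) and 79.9 and 60.6 in green cones. All 6 bipolar libraries were above all 6 photoreceptor libraries, with log2 differences of pan-BC of 3.84 from rods (SE 0.22, limma adjusted p = 1.35e-08), 2.65 from blue cones (1.56e-05) and 2.49 from green cones (7.22e-05).
The promoter of the known transcripts, at chr5:51553807-51554006, was at 49.8 to 99.7 in bipolar libraries, 129 and 147 (rods), 64.8 and 94.7 (blue cones) and 118 and 176 (green cones), and was called in none of the 5 comparisons. RNA of Ppargc1a was 11.9 times higher in rods than pan-BC. Which transcripts carried the reads was not analysed here.

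Several regions of Ppargc1a were close to absent outside the populations with ON bipolar cells. In the region at chr5:51868311-51868510, pan-BC was at 89.6 and 129, ON-BC at 124 and 146, OFF-BC at 2.69 and 0, and photoreceptors at 0 to 5.18. ON-BC was above OFF-BC there by 6.14 on the log2 scale (SE 0.76, limma adjusted p = 3.25e-04), and all 13 alternatives called it. In an intron 14751 bases from the start, at chr5:51539071-51539270, pan-BC was at 33.6 and 50.2, ON-BC at 97.1 and 39.5, OFF-BC at 0 and 1.95 and rods at 0 and 0 (log2 difference of ON-BC from OFF-BC 5.20, adjusted p = 0.00144, called by all 13 alternatives). A region with its centre 205272 bases past the start was at 88.0 and 129 (pan-BC), 105 and 141 (ON-BC), 16.2 and 16.5 (OFF-BC) and 1.56 and 0 (rods), called higher in pan-BC than in rods (6.07, adjusted p = 2.00e-06) and not between ON-BC and OFF-BC (2.82, 0.0635). Of the 24 nearest regions, 4 were higher and 1 lower in ON-BC than in OFF-BC (20.8%, where 7.39% of all regions were called). RNA of Ppargc1a was 2.73 times higher in ON-BC.

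At Ppargc1b the promoter was open in all libraries, at 236 to 420 normalized counts, and called in no comparison. Of 22 tested regions in, within 10 kb of, or nearest to Ppargc1b, 2 were called between rods and blue cones (9.09%, where 10% were). This pair lay in introns, nearest to the start of a microRNA gene and so outside the 95. Both were higher in rods, as was the RNA, but the share called was no larger than that of all regions. In one of them, rods were at 441 and 489, blue cones at 63.5 and 82.4, green cones at 246 and 237 and bipolar libraries at 55.5 to 140. Rods were above blue cones by 2.67 there (SE 0.21, limma adjusted p = 1.15e-05) and by 2.09 in the other (0.00343). Both calls ended with only these populations in the fit (0.0608 and 0.0636) and with the replicate block (0.228, the highest of 13 alternatives for each), and the latter also without rods replicate 2 (0.0569). Pan-BC was below rods in both, by -1.73 and -3.25 (adjusted p = 0.00316 and 4.77e-07), where its RNA was at 70.6% of that of rods. The promoter of Esrra was called in no comparison.

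Esrrg had 37 tested regions, of which 4 were higher and 5 lower in pan-BC against rods (24.3%, where 51.6% of all regions were called). Against blue cones 3 were higher and 10 lower (35.1%, where 35.9% were), and against green cones 2 and 12 (37.8%, where 32.1% were). Its internal promoter, at chr1:187997681-187997880, where 2 known transcripts start, was at 132 and 147 (pan-BC), 145 and 120 (ON-BC), 323 and 275 (OFF-BC), 1047 and 1012 (rods), 780 and 674 (blue cones) and 701 and 722 in green cones. Photoreceptors were above all bipolar libraries, and OFF-BC above the other bipolar populations. The log2 difference of pan-BC was -2.88 from rods (SE 0.15, limma adjusted p = 1.81e-08), -2.37 from blue cones (2.92e-06) and -2.35 from green cones (9.28e-06), while RNA of Esrrg in pan-BC was still 62.4% of that in rods. The contrast of ON-BC with OFF-BC did not pass the test at this promoter (log2 difference -1.17, adjusted p = 0.617).

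Between ON-BC and OFF-BC, 5 of the 37 regions of Esrrg were called (13.5%, where 7.39% of all regions were), all lower in ON-BC. None of the 5 was called by DESeq2 or with only these populations in the fit. With the replicate block, where libraries of the same number share an age of 42 or 46 days, 1 of the 5 was called. The other 4 had adjusted p of 0.168, 0.203, 0.0784 and 0.0691 with the block. Over the gene, the median over 37 regions was -1.34, where that of all regions was 0.15. Next to the start site at base 187651758, the region chr1:187651833-187652032 was at 8.96 and 20.5 (ON-BC), 80.8 and 76.9 (OFF-BC), 16.4 and 26.4 (rods) and 52.2 to 70.1 in cones (log2 difference of ON-BC from OFF-BC -2.45, limma adjusted p = 0.0165). The region chr1:187964894-187965093 was at 20.9 and 11.7 (ON-BC), 83.5 and 75.9 (OFF-BC) and 138 to 202 in photoreceptors (-2.27, adjusted p = 0.0129). Each of these held in 8 of 13 alternatives, with highest adjusted p of 0.165 (without ON-BC replicate 1) and 0.145 (without ON-BC replicate 2). The first was also lost without OFF-BC replicate 1 (0.0953) or 2 (0.0656), and the second without OFF-BC replicate 1 (0.0905). RNA of Esrrg itself was at 1258 ± 45.5 (ON-BC) and 1312 ± 49.2 (OFF-BC), with overlapping libraries and a log2 difference of -0.06 that was not called.

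**Figure D5:**
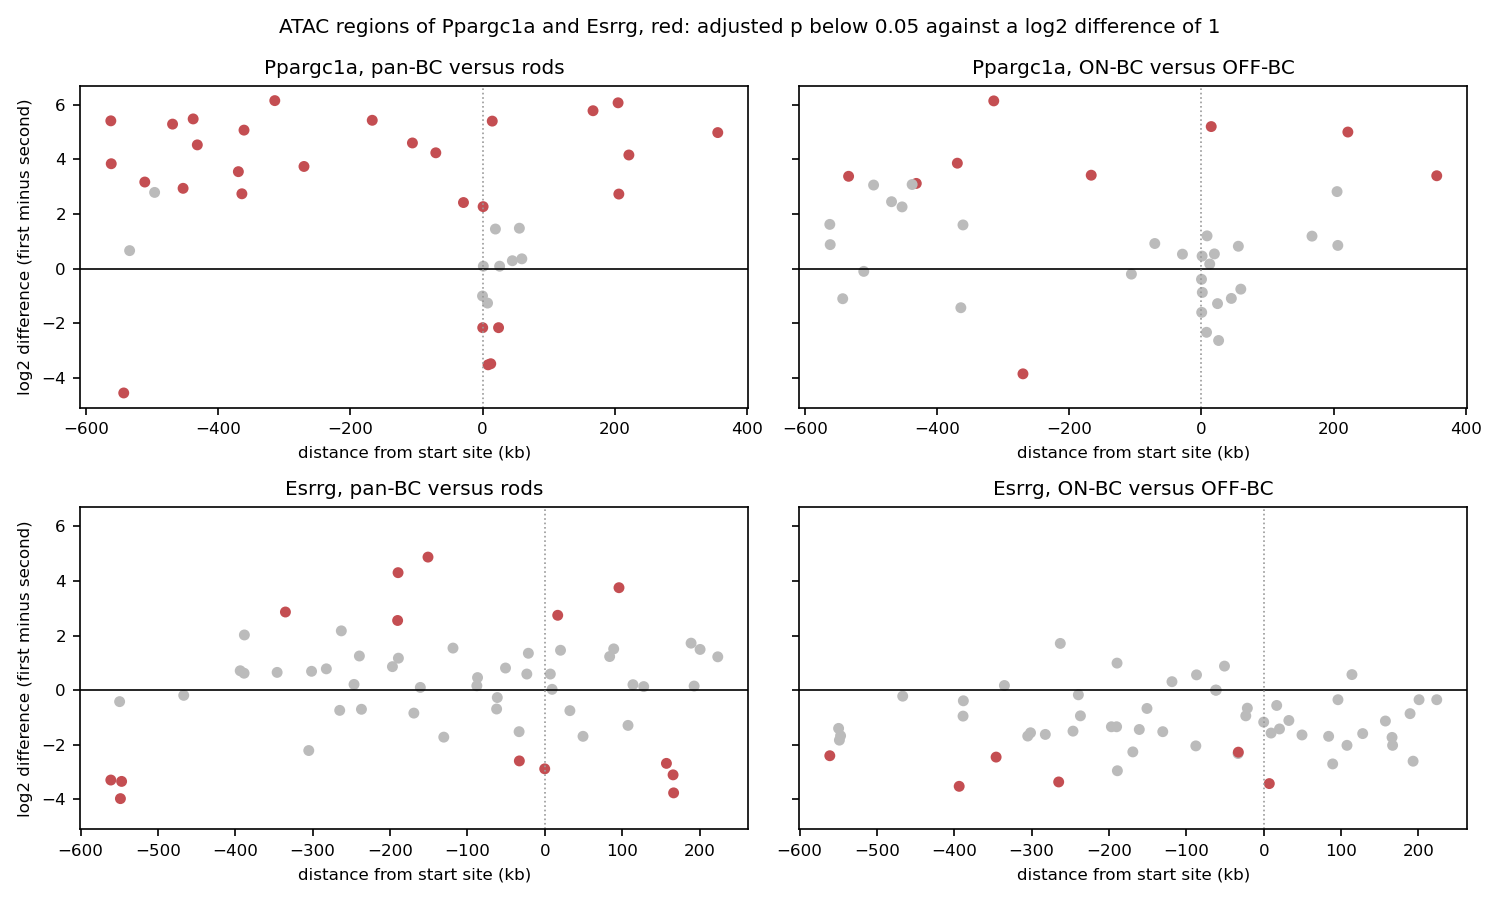
Log2 differences of the ATAC-seq regions in, within 10 kb of, or nearest to Ppargc1a (38 regions) and Esrrg (56) against the distance of their centres from the known start site with most transcripts, with upstream to the left. Red points, which passed the test, lie mostly above 0 for Ppargc1a in pan-BC against rods (23 of 28), as do those of all regions (43735 higher and 12179 lower), and below 0 for Esrrg in ON-BC against OFF-BC (6 of 6), calls that DESeq2 did not make for the 5 nearest to its starts.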

How the data were processed

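RNA-seq of 15 libraries (3 per population) and ATAC-seq of 12 (2 per population), with peaks of 2 more, were used. The tables deposited by the authors hold a signal, the counts of reads per gene or per 200-base region divided by 1 size factor per library, and the peak lists hold the fold enrichment ratio per peak from the authors' MACS2 calls. By the study's methods, RNA-seq reads were aligned with STAR and counted with HTSeq, and ATAC-seq reads were aligned to mm10 with Bowtie2 and cleared of duplicates with Picard, with nucleosome-free fragments kept and peaks called by MACS2 and annotated by HOMER. The versions in the submitters' processing notes are STAR 2.7.0d, HTSeq 1.9, Bowtie2 2.2.5, Picard 2.19.0, MACS2 2.1.1 and HOMER 4.8. Whole reads were recovered for 100.0% of the 230384 RNA and 1212862 ATAC values above 0, within 0.01 of a read. All sample columns were used.

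Values were analysed as log2(normalized count + 1) with limma 3.58.1 in R 4.3.3, in 1 fit per assay over all libraries with 1 level per population, after filterByExpr of edgeR 4.0.16 on the recovered reads. Calls used limma's treat against a log2 difference of 1 at a Benjamini-Hochberg adjusted p below 0.05 over all features. Fold changes of low features are understated by the added 1. Alternatives were TMM scaling, pseudocounts of 0.25 and 5, no filter, edgeR and DESeq2 1.42.0 on the recovered reads, a test against no change, only the populations compared, a replicate block, leaving out each library, and regions in or within 10 kb of a gene. The fits were tested on simulated data. Replicates differed by more than sampling noise, with a chi-square per feature of 7.11 to 70.0 in RNA and 2.33 to 4.46 in ATAC.

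Regions were assigned to the nearest of the start sites of 45756 RefSeq transcripts (GRCm38), and promoters were taken as 1000 bases before to 100 after a start. Region starts were read as counted from 0, which the files do not state, so positions may be off by 1 base. The members and lists were chosen with earlier results of these data known. Named were the 10 members, up to 3 genes per list and direction with the largest change among those called, the 5 genes most correlated with Ahrr and Ppara, and, per member, promoter regions and those with the largest change, and some named genes are not reported here; among these regions the ones described were picked after their values were seen. Counting intervals and limits cover counting error only.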

Additional observations from a re-analysis of the deposited data

How the results depend on the processing

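With ON-BC set against OFF-BC, 0 of the 9 genes were called. This became 1 with edgeR, 5 against no change, and 0 to 1 when single libraries were left out, with 1 without OFF-BC replicate 3. Among the 5 was Ppara, on 17 reads against 3, and among the 9 was Ahrr, on 13 against 14. Between rods and blue cones 2 were called, 7 against no change, and 1 to 2 when single libraries were left out, with 1 without rods replicate 3. Of the pathway genes, 41 were called against rods and 37 against blue cones, 65 and 67 against no change, and 38 to 41 and 33 to 36 when single libraries were left out.

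Of the member regions, 11 were called between ON-BC and OFF-BC (4 higher and 7 lower), 6 with a pseudocount of 0.25, 4 with DESeq2, 31 against no change, 4 with only both populations, 7 with the replicate block and 3 to 10 when single libraries were left out; TMM scaling gave 2 higher and 8 lower, and a pseudocount of 5 gave 6 and 2, DESeq2 4 and 0, and the replicate block 5 and 2. Against blue cones 32 were called in pan-BC (14 higher and 18 lower), 20 with a pseudocount of 0.25, 60 against no change, and 18 to 20 when any 1 of the 4 libraries was left out; TMM scaling gave 10 higher and 23 lower. Against green cones 36 were called, 63 against no change, and 23 to 24 when single libraries were left out, with 23 without either pan-BC library or green cones replicate 2. Against rods 42 were called, and 35 to 57 over all alternatives. Between rods and blue cones 3 were called, 9 with regions in or within 10 kb, 6 with TMM scaling, 19 with edgeR, 1 with DESeq2, 45 against no change, 0 with only these populations, 0 with the replicate block, and 1 to 2 when single libraries were left out, with 1 without blue cones replicate 2. The cause was not tested.

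ON-BC and OFF-BC libraries of the same number came from mice of the same age (days 43, 48 and 42 in RNA-seq, 42 and 46 in ATAC-seq), but the labels do not say that a number marks a shared day or litter, and same-numbered RNA libraries had correlations of deviations of -0.0763, 0.222 and -0.0649. With the replicate block, 0 genes were called between ON-BC and OFF-BC, 2 between rods and blue cones (Ppargc1b and Ppara, adjusted p = 0.00240 and 0.0346, with Ppard no longer called at 0.0944), and 41 and 32 pathway genes against rods and blue cones. With 2 ATAC-seq libraries per population, leaving out 1 leaves a lone library that is assumed to vary like the others.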
